A study of Mus musculus with 6 samples.

Results

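The 9 genes described here, Siglecf, Marco, Chil3, Ear1, Ear2, Pparg, Fabp1, Krt79 and Mrc1, mark resident alveolar macrophages of the mouse. They were chosen by name from the 49315 genes of a count table of lung cells. Under these names 8 were found, and Siglecf was listed as Siglec5 and matched by its Ensembl identifier, ENSMUSG00000039013. Resident alveolar macrophages are phagocytes of the airspaces that clear surfactant lipid, inhaled particles and microbes. Their identity depends on the cytokine GM-CSF and on the nuclear receptor Pparg, and much of their gene programme concerns lipid handling, scavenging and secreted defence proteins. After lung injury, macrophages derived from blood monocytes enter the airspaces and can take on a part of this programme.

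C57BL/6 mice were given sterile saline (sham) or bleomycin sulfate (BLM), a drug that injures the lung and is used to model fibrosis, by the oropharyngeal route. Lungs were taken 21 days later, made into cell suspensions and left unsorted or sorted by Lamp1 at the cell surface into Lamp1-depleted and Lamp1-enriched cells. Lamp1 is a protein of the lysosomal membrane that also reaches the surface of some cells. Poly-A RNA was sequenced as 1 library for each of the 6 conditions. Cells of 2 to 3 lungs from a group shared a tube, so mice cannot be told apart, and their age was not given in the sources used here. No difference within a treatment has a replicate check.

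Total counts were 40742095, 39609874 and 45090413 for the unsorted, Lamp1-depleted and Lamp1-enriched sham libraries, and 39728284, 30236120 and 52918696 for the BLM libraries in that order. The BLM Lamp1-depleted library stood apart, since 38.4% of its reads fell on the noncoding gene Gm26917. That share was 7.10% in BLM unsorted cells and 3.50% or less in the other libraries. Outside Gm26917 the BLM Lamp1-depleted library held 18636423 reads. Levels are given as counts per 1000000 counts of the library (CPM), after scaling by TMM factors, which reduce the weight of such genes. A log2 ratio between libraries includes a prior of 0.5 reads and has a 95% Clopper-Pearson interval. These intervals, and the floor of 3 reads used where a gene had 0 reads, cover counting error only. In bulk libraries of this kind, fewer cells of a type and less RNA per cell cannot be told apart.

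The sort was checked on its own marker. Lamp1 was at 146 and 491 CPM in sham Lamp1-depleted and Lamp1-enriched cells, and at 111 and 378 CPM in the same BLM fractions. Unsorted cells lay between or above these values, with 319 CPM in sham and 501 CPM in BLM. The leukocyte gene Ptprc ran the other way, with 2593 CPM in Lamp1-depleted against 202 CPM in Lamp1-enriched sham cells, and 1267 against 173 CPM in BLM. Unsorted cells had 462 CPM of Ptprc in sham and 866 CPM in BLM.

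The first question was whether alveolar macrophage genes were carried into either sorted fraction. They were mostly higher in unsorted cells than in both fractions. In sham, unsorted cells had at least 4-fold more of 3 of 9 members than each fraction, namely Siglecf, Fabp1 and Krt79, while 2.28% of 23233 genes met this rule. In BLM 8 of 9 members met it, all but Pparg, against 3.3% of 22801 genes. With Fabp1, at 0 reads in both BLM fractions, placed at its bound (0 reads set to the floor of 3), the BLM count was 7. The summed level of the members was 492 CPM in sham unsorted cells against 154 CPM in Lamp1-depleted and 129 CPM in Lamp1-enriched cells. In BLM the sums were 2539, 204 and 291 CPM in the same order, so that the unsorted library had the highest sum in each treatment. Several members lay near the rule in sham, where the count was 6 with total counts only, 7 without the sham Lamp1-enriched library and 3 without the sham Lamp1-depleted library. Without the BLM Lamp1-depleted library the BLM count was 9, and without the BLM Lamp1-enriched library it was 8.

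**Figure D1:**
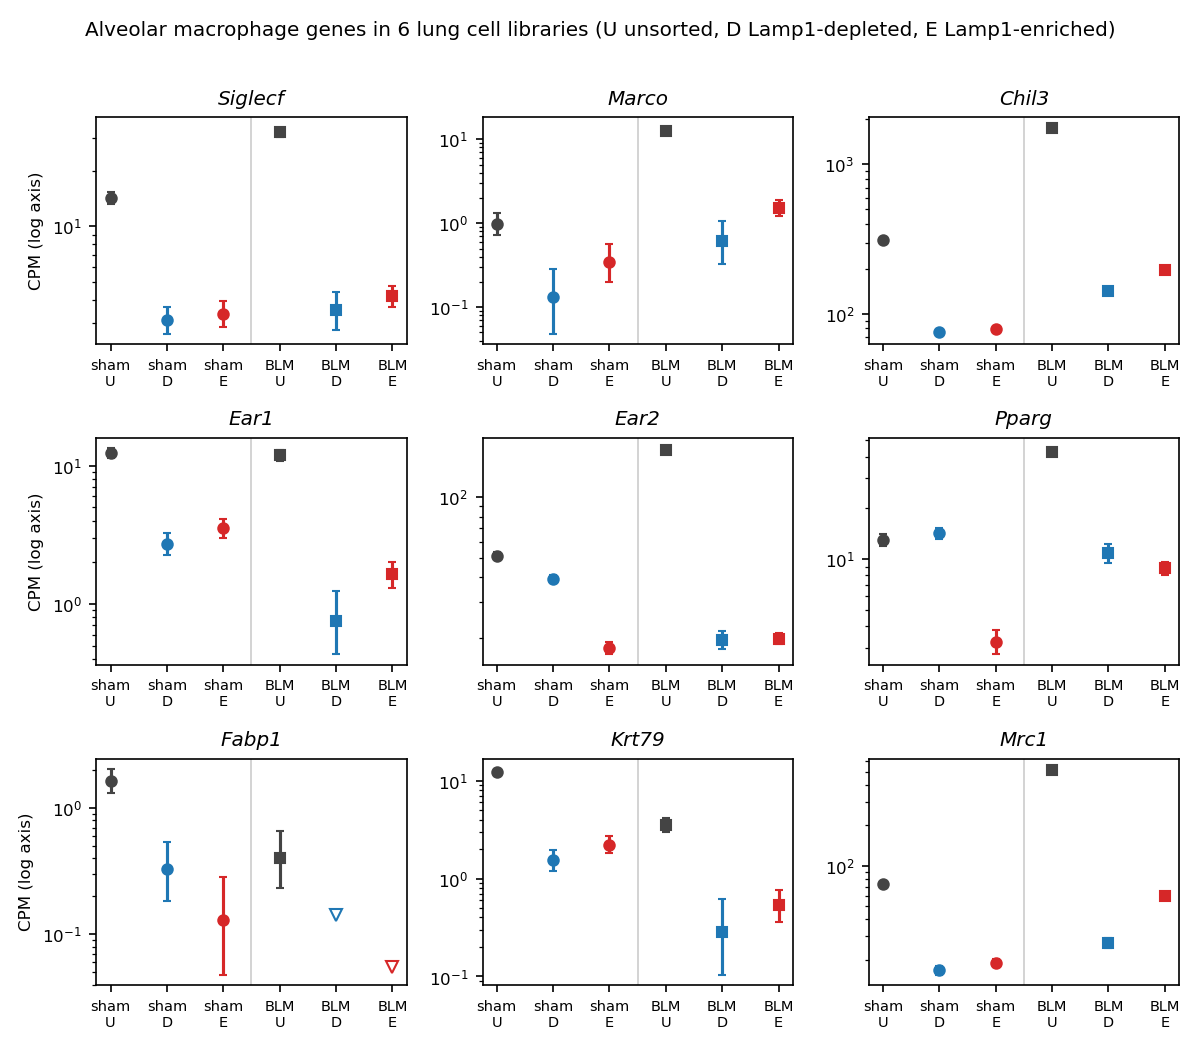
Level of each member in CPM on a log axis in sham (circles) and BLM (squares) libraries of unsorted (U, grey), Lamp1-depleted (D, blue) and Lamp1-enriched (E, red) cells, with 95% counting intervals; open triangles mark the floor of 3 reads where a gene had 0 reads. The unsorted library was the highest of its treatment for every member except Pparg in sham, where Lamp1-depleted cells had 14.1 CPM and unsorted cells 13.0 CPM.

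The plot of levels by library shows the same arrangement for the receptors, a low pair of sorted fractions under a higher unsorted library. Siglecf (chr7:43351341-43359531, plus strand, GRCm38) encodes a sialic acid-binding receptor found on alveolar macrophages and eosinophils. Its level was 14.3 CPM in sham unsorted, 3.11 in sham Lamp1-depleted, 3.35 in sham Lamp1-enriched, 32.2 in BLM unsorted, 3.50 in BLM Lamp1-depleted and 4.18 CPM in BLM Lamp1-enriched cells. Both unsorted libraries were high, and the 4 sorted libraries lay close together at the bottom of the range. Unsorted cells had 4.56-fold more Siglecf than Lamp1-depleted and 4.25-fold more than Lamp1-enriched cells in sham, with log2 ratios of 2.19 (1.93 to 2.47) and 2.09 (1.84 to 2.35). In BLM the log2 ratios were 3.20 (2.86 to 3.56) and 2.94 (2.74 to 3.16).

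Mrc1 (chr2:14229392-14332057, plus strand) encodes the mannose receptor, an endocytic lectin that is also made by other macrophages and by lymphatic endothelium. Mrc1 was at 73.7, 16.6 and 18.9 CPM in the unsorted, Lamp1-depleted and Lamp1-enriched sham libraries, and at 519, 26.8 and 59.4 CPM in the BLM libraries. The BLM unsorted library was the highest by a wide margin, and sham unsorted cells came next. Over Lamp1-depleted cells, the log2 ratio of unsorted cells was 2.15 (2.03 to 2.26) in sham and 4.27 (4.15 to 4.40) in BLM. Over Lamp1-enriched cells it was 1.96 (1.85 to 2.07) and 3.13 (3.07 to 3.18), so that Mrc1 missed the 4-fold rule in sham at 3.89-fold. Lymphatic endothelial markers differed among themselves. Their sum, led by Lyve1 in all libraries but BLM Lamp1-depleted cells, where Flt4 led, was 438, 81.9 and 779 CPM in sham and 188, 32.7 and 400 CPM in BLM, and Ccl21a was at 0 reads throughout. Prox1 had 5.19, 0.812 and 1.37 CPM in sham and 13.1, 3.22 and 2.16 CPM in BLM, and Reln 13.8, 5.51 and 1.93 CPM in sham and 15.8, 2.98 and 2.73 CPM in BLM, so that these 2 genes were highest in the unsorted library of each treatment, as Mrc1 was. The part of these cells in the Mrc1 level was not tested.

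Marco (chr1:120474538-120505024, minus strand) encodes a scavenger receptor that binds unopsonised particles and bacteria. It had few reads, with 48, 6 and 16 reads in the unsorted, Lamp1-depleted and Lamp1-enriched sham libraries and 496, 13 and 84 reads in BLM. These reads correspond to 0.989, 0.132 and 0.348 CPM in sham and to 12.6, 0.615 and 1.54 CPM in BLM. Marco was thus high in 1 library, BLM unsorted cells, and near the floor in sham Lamp1-depleted cells. The sham log2 ratio was 2.80 (1.68 to 4.43) over Lamp1-depleted and 1.48 (0.67 to 2.42) over Lamp1-enriched cells, and both intervals include a 4-fold difference. In BLM, where more reads were available, the ratios were 4.33 (3.57 to 5.27) and 3.02 (2.69 to 3.38).

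Chil3 (chr3:106147554-106167564, minus strand) encodes Ym1, a secreted chitinase-like lectin without chitinase activity. It had 313, 76.0 and 79.6 CPM in the unsorted, Lamp1-depleted and Lamp1-enriched sham libraries, and 1745.5, 141 and 196 CPM in BLM. Sorted fractions of a treatment lay near each other and unsorted cells stood well above them. The sham log2 ratios were 2.04 (1.99 to 2.10) over Lamp1-depleted and 1.98 (1.92 to 2.03) over Lamp1-enriched cells, the latter a 3.94-fold difference just under the 4-fold rule. In BLM they were 3.63 (3.57 to 3.68) and 3.16 (3.13 to 3.19).

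Chil3 and Mrc1 had the most alike profiles of any pair of members, with a root mean square distance of 0.24 between their centred log2 CPM over the 6 libraries. For this reason their promoters are shown side by side, as windows of 300 bases around the start of the gene in RefSeq on GRCm38.p6, where 9 of 9 members were matched. The Chil3 window is chr3:106167515-106167814 on the minus strand and the Mrc1 window chr2:14229164-14229463 on the plus strand, each written 5′ to 3′ along the gene. Capitals mark TATAAA, searched on both strands and present in 13.6% of 32851 promoters of this length.
Chil3: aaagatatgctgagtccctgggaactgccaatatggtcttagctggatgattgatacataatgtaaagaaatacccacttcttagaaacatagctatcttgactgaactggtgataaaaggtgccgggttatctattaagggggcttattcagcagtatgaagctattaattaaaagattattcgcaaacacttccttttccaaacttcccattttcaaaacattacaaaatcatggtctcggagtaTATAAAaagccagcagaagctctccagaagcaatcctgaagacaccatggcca
Mrc1: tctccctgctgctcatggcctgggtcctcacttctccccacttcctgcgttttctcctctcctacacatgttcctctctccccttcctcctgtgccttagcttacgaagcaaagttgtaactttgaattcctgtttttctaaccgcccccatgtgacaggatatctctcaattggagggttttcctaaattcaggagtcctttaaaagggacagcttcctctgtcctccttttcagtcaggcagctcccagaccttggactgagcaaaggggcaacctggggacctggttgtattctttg
The aligned windows were identical at 87 of 298 bases (29.2%), which is within the range of 26.3% to 33.2% over the member pairs other than Ear1 and Ear2.

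Ear1 (chr14:43818765-43875517, minus strand) and Ear2 (chr14:44102654-44103534, plus strand) encode eosinophil-associated ribonucleases, a rodent family of secreted RNases that alveolar macrophages also make. Ear1 was at 12.3, 2.72 and 3.52 CPM in the unsorted, Lamp1-depleted and Lamp1-enriched sham libraries, and at 11.9, 0.757 and 1.63 CPM in BLM. Both unsorted libraries had nearly the same Ear1 level, while the BLM fractions were lower than the sham fractions. Its log2 ratios of unsorted over Lamp1-depleted and Lamp1-enriched cells were 2.17 (1.90 to 2.47) and 1.80 (1.55 to 2.06) in sham, and 3.95 (3.26 to 4.79) and 2.86 (2.53 to 3.21) in BLM. Ear2 was at 51.2, 39.1 and 17.8 CPM in sham and at 171, 19.5 and 19.8 CPM in BLM. In sham, Ear2 in Lamp1-depleted cells was therefore close to unsorted cells, with a log2 ratio of 0.39 (0.30 to 0.48) between them, and 1.53 (1.41 to 1.64) over Lamp1-enriched cells. In BLM both sorted fractions were low, with ratios of 3.13 (2.99 to 3.28) and 3.11 (3.01 to 3.20).

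The promoters of Ear1 and Ear2 are shown because these genes are near copies whose levels differed in pattern. The windows are chr14:43819590-43819889 on the minus strand for Ear1 and chr14:44102404-44102703 on the plus strand for Ear2, from the same RefSeq table. The Ear1 start in RefSeq lies inside the longer gene model used for the gene position above.
Ear1: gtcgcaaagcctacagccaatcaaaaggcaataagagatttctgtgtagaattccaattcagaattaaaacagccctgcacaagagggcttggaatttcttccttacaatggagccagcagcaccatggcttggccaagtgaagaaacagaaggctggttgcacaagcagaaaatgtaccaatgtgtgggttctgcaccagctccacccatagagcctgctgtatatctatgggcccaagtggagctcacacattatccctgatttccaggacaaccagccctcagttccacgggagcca
Ear2: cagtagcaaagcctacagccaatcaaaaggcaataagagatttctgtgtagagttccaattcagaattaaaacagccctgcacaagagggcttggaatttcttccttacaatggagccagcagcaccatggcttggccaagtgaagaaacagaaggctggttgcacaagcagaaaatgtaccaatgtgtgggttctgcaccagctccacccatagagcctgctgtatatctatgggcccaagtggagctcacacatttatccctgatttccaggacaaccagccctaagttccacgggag
At an offset of 2 bases, 268 of 298 bases (89.9%) were identical, against 33.2% or less for every other pair of members. Transcripts were also alike. Of the 50-base windows in Ear1 transcripts, 57.4% occurred in another gene, with 23.8% in Ear2 and 41.4% in the pseudogene Ear-ps9. For Ear2 the share was 41.5%, with 26.0% in Ear10. Chil3 shared 26.9% of its windows, with 16.9% in Chil4, Siglecf 0.206%, and the other 5 members none. Ear1 exons also overlapped Ear-ps9 over 17 bases on the same strand. How the counting treated reads that fit several genes was not given in the sources used here, so the split of reads between Ear1, Ear2 and their copies is uncertain. Ear10 itself had 0 reads in every library and Ear14 at most 1.

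Pparg (chr6:115360951-115490399, plus strand) encodes the nuclear receptor that GM-CSF induces in developing alveolar macrophages and that controls their lipid metabolism. Its levels were 13.0, 14.1 and 3.24 CPM in the unsorted, Lamp1-depleted and Lamp1-enriched sham libraries, and 42.8, 10.8 and 8.81 CPM in BLM. Pparg was the exception among the members in sham, since Lamp1-depleted cells reached the level of unsorted cells. The sham log2 ratio was -0.12 (-0.29 to 0.04) over Lamp1-depleted cells, an interval that includes no difference, and 2.00 (1.74 to 2.27), just under the rule, over Lamp1-enriched cells. In BLM it was 1.99 (1.79 to 2.19) and 2.28 (2.13 to 2.43), which put Pparg next to the 4-fold rule. Adipocytes also make Pparg. Their markers summed to 1.34, 0.285 and 0.891 CPM in sham and to 3.95, 0.615 and 0.881 CPM in BLM, led by Cfd, with Lep at 1 read in sham unsorted cells and at 0 reads elsewhere. In unsorted cells Cfd was higher in BLM, with a log2 ratio of 2.07 (1.52 to 2.71). The part of adipocytes in the Pparg level was not tested.

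Fabp1 and Krt79 had the lowest levels per kb of exon among the members in BLM unsorted cells. Fabp1 (chr6:71199827-71205023, plus strand) encodes a fatty acid-binding protein best known from liver and gut that mouse alveolar macrophages also make. It had 80, 15 and 6 reads in the unsorted, Lamp1-depleted and Lamp1-enriched sham libraries, or 1.65, 0.329 and 0.130 CPM. In BLM it had 16 reads (0.406 CPM) in unsorted cells and 0 in both fractions, where 3 reads correspond to 0.142 CPM in Lamp1-depleted and 0.0550 CPM in Lamp1-enriched cells. Sham unsorted cells were thus the highest library and both BLM fractions were without a read. The sham log2 ratios were 2.28 (1.52 to 3.23) over Lamp1-depleted and 3.55 (2.47 to 5.15) over Lamp1-enriched cells. With these 0 reads set to 3, BLM unsorted cells were 2.86-fold higher than Lamp1-depleted and 7.37-fold higher than Lamp1-enriched cells. The lower limits of the 95% intervals of the log2 ratios were 1.05 and 2.41. The liver genes Alb, Apoa1 and Ttr and the gut gene Cdx2 had at most 7 reads in any library, and of the liver and gut list Vil1 alone had more, from 4 to 82 reads.

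Krt79 (chr15:101929332-101940324, minus strand) encodes a type II keratin that is a marker of mouse alveolar macrophages although keratins are epithelial proteins. Its level was 12.2, 1.54 and 2.22 CPM in the unsorted, Lamp1-depleted and Lamp1-enriched sham libraries, and 3.55, 0.284 and 0.532 CPM in BLM. Every BLM library was lower than its sham counterpart, and unsorted cells were the highest in each treatment. The log2 ratios were 2.97 (2.63 to 3.36) and 2.45 (2.15 to 2.77) in sham, and 3.59 (2.49 to 5.11) and 2.71 (2.15 to 3.37) in BLM. Krt79 was 1 of 3 members past 4-fold over both fractions in each treatment, together with Siglecf and, at its fitted value, Fabp1.

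The promoters of Fabp1 and Krt79 are shown because these members were lower in BLM than in sham unsorted cells beyond counting error, as described further on. The windows are chr6:71199629-71199928 on the plus strand and chr15:101940275-101940574 on the minus strand. Capitals mark TATAAA and the nuclear receptor motif AGGTCA, which is printed as TGACCT where it lies on the other strand.
Fabp1: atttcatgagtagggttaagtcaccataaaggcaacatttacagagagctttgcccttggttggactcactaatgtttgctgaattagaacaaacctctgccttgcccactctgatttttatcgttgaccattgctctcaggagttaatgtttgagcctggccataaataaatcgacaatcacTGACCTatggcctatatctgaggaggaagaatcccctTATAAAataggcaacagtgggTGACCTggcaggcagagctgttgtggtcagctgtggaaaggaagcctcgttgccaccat
Krt79: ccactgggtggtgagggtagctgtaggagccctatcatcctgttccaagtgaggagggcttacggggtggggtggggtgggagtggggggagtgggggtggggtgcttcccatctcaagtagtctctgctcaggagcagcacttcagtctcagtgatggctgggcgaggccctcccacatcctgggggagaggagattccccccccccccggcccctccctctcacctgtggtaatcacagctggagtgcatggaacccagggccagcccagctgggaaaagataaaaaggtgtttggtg
Fabp1 held AGGTCA at 2 places, both on the strand opposite the gene, and 1 TATAAA, while the Krt79 window held neither. AGGTCA occurred in 16.3% of all promoters. Among the other members it was found in 2 of the 3 Pparg windows. The remaining searches, also on both strands, were the PU.1 core GAGGAAGT (3.20% of promoters), the C/EBP motif TTGCNNCAA (2.08%) and the E-box CACGTG (7.15%), and none of these was found in a member window. A match describes these letters and nothing about binding.

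**Figure D2:**
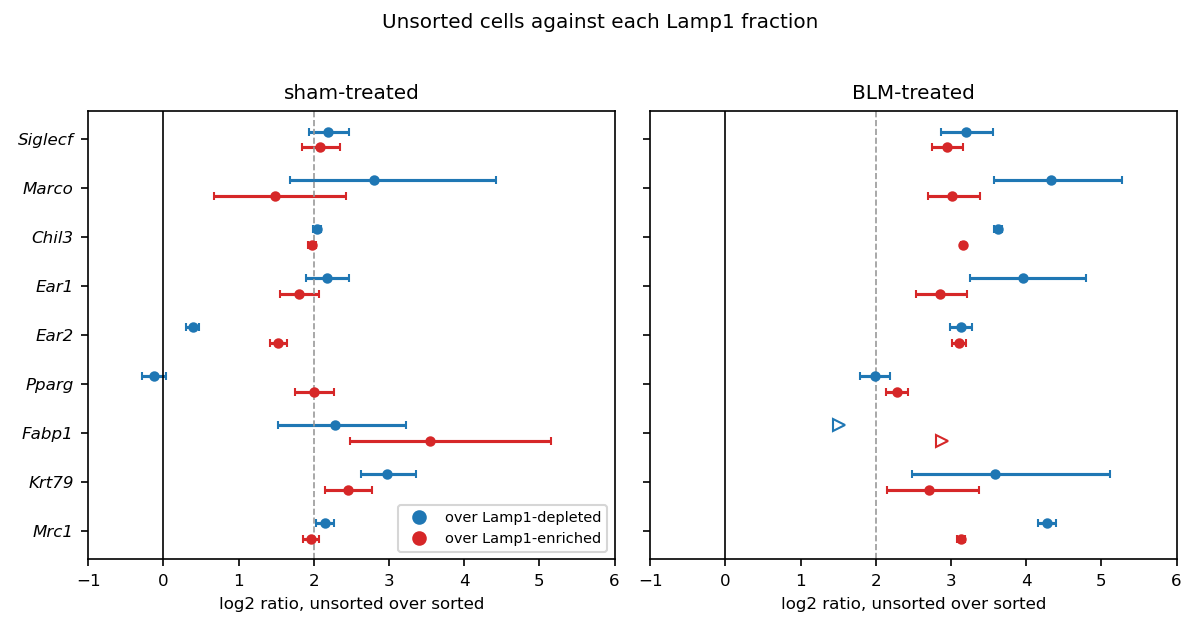
Log2 ratio of unsorted over Lamp1-depleted (blue) and over Lamp1-enriched (red) cells for each member in sham (left) and BLM (right), with 95% counting intervals, a solid line at 0 and a dashed line at a 4-fold difference. Open triangles are bounds with 0 reads set to 3. In BLM 8 of 9 members lie past the dashed line on both ratios at fitted values, against 3 of 9 in sham, and with total counts only these counts became 9 and 6.

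Across members, the plot of unsorted against sorted ratios shows a shift to the right from sham to BLM. The median log2 ratio over Lamp1-depleted cells was 2.17 in sham and 3.63 in BLM (3.59 with Fabp1 at its bound), while the median over all tested genes was 0.03 and 0.34. Over Lamp1-enriched cells the members' median was 1.98 in sham and 3.02 in BLM (2.94 with Fabp1 at its bound), against 0.03 and -0.04 for all genes. Whether the ratios differed between sham and BLM was not tested, since a model with that term leaves no residual degrees of freedom. The fractions were also compared with each other. In sham, Lamp1-enriched over Lamp1-depleted cells gave log2 ratios of 0.10 (-0.23 to 0.44) for Siglecf and 0.07 for Chil3, whose interval also includes 0, and both turned negative with total counts only, at -0.07 and -0.11. Pparg and Ear2 were instead lower in sham Lamp1-enriched than in Lamp1-depleted cells, with ratios of -2.12 (-2.39 to -1.87) and -1.14 (-1.26 to -1.02). Krt79, Ear1 and Mrc1 were higher there, with 0.53 (0.08 to 0.99), 0.37 (0.03 to 0.72) and 0.19 (0.04 to 0.33). Mrc1 turned to -0.03 with totals outside Gm26917 and Gm42418. Marco at 1.33 and Fabp1 at -1.26 had intervals that include 0. Of the 9 members 6 were above and 3 below 0 in sham, with a median of 0.10 against -0.01 for all genes. In BLM the same ratio was above 0 for 7 of 8 members, with a median of 0.67 against 0.29 for all genes. Marco had 1.31 (0.47 to 2.29), Mrc1 1.15 (1.02 to 1.28) and Ear1 1.10 (0.33 to 1.98), while Ear2 had 0.02 (-0.14 to 0.19). Pparg was the member below 0, with -0.29 (-0.52 to -0.06), and turned positive with total counts only, at 0.27.

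A shared effect over both treatments could be tested with edgeR's quasi-likelihood test and Benjamini-Hochberg adjustment, with treatment as an additive term, 6 libraries and 2 residual degrees of freedom. Against Lamp1-depleted cells, 7 of 9 members were called higher in unsorted cells, where 18.8% of 21906 genes were. Krt79 had a log2 ratio of 3.23 (SE 0.45, edgeR adjusted p = 0.000943) and Siglecf one of 2.71 (SE 0.38, edgeR adjusted p = 0.000939), each higher in unsorted cells of both treatments. Fabp1, with a log2 ratio of 3.05 (SE 1.09, edgeR adjusted p = 0.0600), and Pparg, with 0.83 (SE 0.48, edgeR adjusted p = 0.222), did not pass. The number of members was 5 without the BLM unsorted library, 6 without the BLM Lamp1-depleted library and 7 or 8 without each of the others.

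Against Lamp1-enriched cells, 8 of 9 members were called higher in unsorted cells, where 2.06% of genes were. Siglecf had a log2 ratio of 2.55 (SE 0.37), Chil3 2.64 (SE 0.44), Krt79 2.59 (SE 0.42) and Mrc1 2.65 (SE 0.47), all higher in both treatments and with an edgeR adjusted p of 0.0305. Pparg, with 2.17 (SE 0.48), had an edgeR adjusted p of 0.0477, and Marco, with 2.39 (SE 0.53), one of 0.0487, close to the threshold of 0.05. Fabp1 had the highest estimate, 4.41 (SE 1.13, edgeR adjusted p = 0.0772), and did not pass. Without BLM unsorted cells 1 member passed, Chil3, and without BLM Lamp1-enriched cells 2 did, Pparg and Mrc1, while the genes called higher over the whole table went from 451 to 112 and 48. Over the settings run, the lowest log2 ratio was 2.05 for Siglecf, 1.87 for Chil3, 2.38 for Krt79, 1.70 for Mrc1, 1.63 for Ear1, 1.51 for Marco, 1.46 for Pparg, 1.21 for Ear2 and 3.60 for Fabp1. Leaving out any other library gave 8 or 9 members.

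BLM was then compared with sham within each cell preparation. In unsorted cells 3 of 9 members were at least 4-fold higher in BLM, Marco, Chil3 and Mrc1, against 4.96% of 22772 genes. At least 4-fold lower were 0 of 9 members, against 4.99% of genes, although Fabp1 lay at the edge of the rule, and with total counts only 2 members met it, Fabp1 and Krt79. The log2 ratio was 3.65 (3.24 to 4.13) for Marco, 2.82 (2.77 to 2.87) for Mrc1 and 2.48 (2.45 to 2.503) for Chil3. The highest ratios of BLM over sham among the members thus belonged to a scavenger receptor and a pair of lectins. Ear2, Pparg and Siglecf followed, with 1.74 (1.67 to 1.81), 1.72 (1.59 to 1.85) and 1.18 (1.04 to 1.31). Ear1 did not differ detectably at this depth, with -0.05 (-0.23 to 0.13). Krt79 and Fabp1 were lower, with -1.77 (-2.05 to -1.51) and -1.99 (-2.90 to -1.24), so the members did not move as a block. Their median was 1.72, with 6 above and 3 below 0, and that of all genes -0.07.

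The sorted fractions gave a different picture for some members. In Lamp1-enriched cells Marco, Mrc1, Pparg and Chil3 were higher in BLM, with log2 ratios of 2.11 (1.37 to 3.02), 1.65 (1.54 to 1.76), 1.44 (1.18 to 1.72) and 1.30 (1.24 to 1.35). Ear1 and Krt79 were lower there, with -1.10 (-1.50 to -0.73) and -2.03 (-2.71 to -1.45). In Lamp1-depleted cells Ear1, Ear2 and Krt79 were lower in BLM, with -1.83 (-2.70 to -1.09), -1.0 (-1.16 to -0.85) and -2.39 (-3.93 to -1.24), and Pparg had -0.39 (-0.61 to -0.17). In CPM, Ear2 and Pparg were therefore higher in BLM in unsorted cells and lower in Lamp1-depleted cells. Marco and Chil3 were higher in BLM Lamp1-depleted cells, with 2.13 (0.73 to 3.91) and 0.90 (0.82 to 0.97). Mrc1, with 0.69 (0.53 to 0.85), and Siglecf, with 0.17 (-0.26 to 0.58), turned negative there with total counts only, at -0.03 and -0.55. That scaling shifted the median of all genes by -0.72 in Lamp1-depleted cells and put that of the members at -1.11. The ratios of the other members there are lower with it too. The median of the members was 0.81 in Lamp1-enriched cells, where 8 could be compared, and -0.39 in Lamp1-depleted cells, against 0.00 and -0.21 for all genes. Each of these ratios compares a pair of libraries, and the sets of ratios share libraries with those of unsorted over sorted cells.

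**Figure D3:**
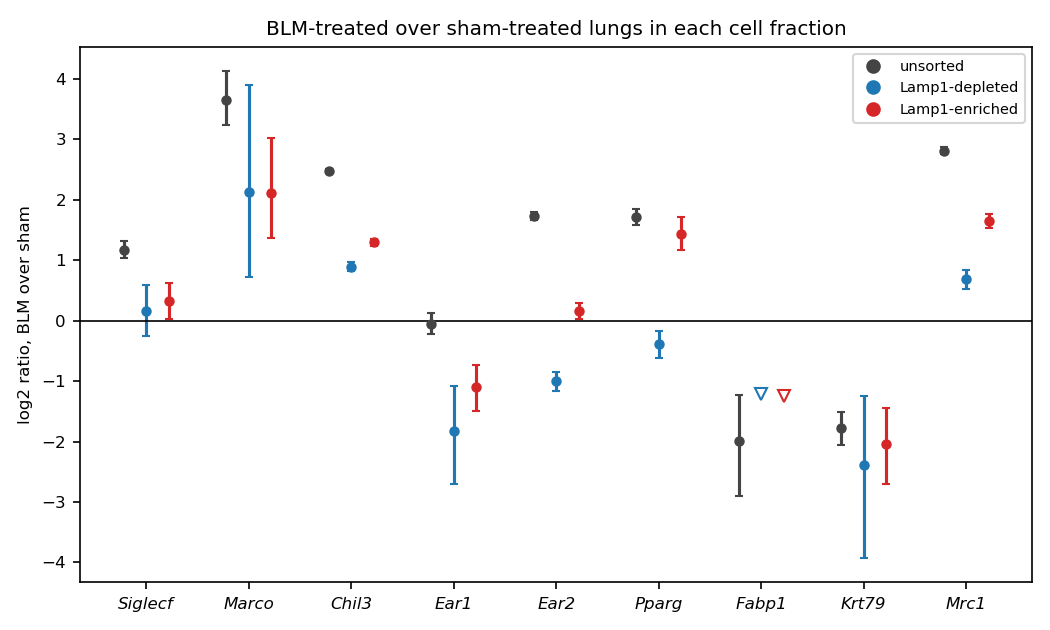
Log2 ratio of BLM over sham for each member in unsorted (grey), Lamp1-depleted (blue) and Lamp1-enriched (red) cells, with 95% counting intervals. Open triangles mark bounds with 0 BLM reads set to 3. Krt79 lies below 0 in all 3 preparations and Marco above 0, while Siglecf and Mrc1 in Lamp1-depleted cells fall below 0 with total counts only.

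The order of the levels was compared per kilobase of exon, since transcripts differ in length. In sham unsorted cells Chil3 had 192 CPM per kb, Ear2 71.2, Ear1 16.8, Mrc1 11.6, Siglecf 5.11, Pparg 4.39, Fabp1 2.98, Krt79 2.56 and Marco 0.514 CPM per kb. In BLM unsorted cells the order was Chil3 with 1069.5 CPM per kb, Ear2 238, Mrc1 81.4, Ear1 16.3, Pparg 14.5, Siglecf 11.5, Marco 6.53, Krt79 0.747 and Fabp1 0.733 CPM per kb. Chil3 and Ear2 kept the top of the order, Marco moved from last to above Krt79 and Fabp1, and Mrc1 passed Ear1. No replicate gives a spread for neighbours in this order. Ear2 led in sham Lamp1-depleted cells, with 54.4 CPM per kb against 46.6 for Chil3.

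A ratio to Siglecf shows how the members moved among themselves, independent of library scaling. In unsorted cells the number of reads per Siglecf read went from 0.853 in sham to 0.110 in BLM for Krt79, from 0.863 to 0.369 for Ear1 and from 0.116 to 0.0126 for Fabp1. It went from 0.0694 to 0.390 for Marco, from 21.98 to 54.2 for Chil3 and from 5.17 to 16.1 for Mrc1. The log2 ratio of BLM over sham per Siglecf read was -2.95 (-3.25 to -2.65) for Krt79 and -3.20 (-3.98 to -2.41) for Fabp1, and 2.49 (2.04 to 2.94) for Marco. Krt79 was also lower per Siglecf read in Lamp1-depleted cells, with -2.60 (-3.87 to -1.33), and in Lamp1-enriched cells, with -2.38 (-3.04 to -1.72). Ear1 was lower per Siglecf read in the same preparations, with -2.01 (-2.87 to -1.16) and -1.43 (-1.91 to -0.95). Ear2 and Pparg were instead higher per Siglecf read in BLM unsorted cells, with 0.56 (0.41 to 0.71) and 0.54 (0.36 to 0.73), and lower in BLM Lamp1-depleted cells, with -1.17 (-1.61 to -0.74) and -0.56 (-1.02 to -0.10). This ratio and the following denominator were added after seeing the data.

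Genes of macrophages in general were higher in BLM unsorted cells. All 10 pan-macrophage genes were higher in BLM than in sham unsorted cells, 9 of them at least 4-fold, with Mertk at a log2 ratio of 1.05. Over both fractions 0 of 10 met the 4-fold rule in sham and 7 in BLM, and their median log2 ratio of unsorted over Lamp1-depleted and Lamp1-enriched cells was -0.44 and 1.11 in sham and 2.70 and 2.77 in BLM. The members had 2.17 and 1.98 in sham and 3.63 and 3.02 in BLM. The summed level of the pan-macrophage genes was 2565, 1905 and 1261 CPM in the unsorted, Lamp1-depleted and Lamp1-enriched sham libraries and 23753, 3331 and 3174 CPM in BLM. The lysozyme gene Lyz2 was the most abundant in each library, from 806 to 17243 CPM, and none of the 10 genes was at 0. Per 1000 reads of this list, unsorted cells had 5.56 reads of Siglecf in sham and 1.36 in BLM, 122 and 73.5 of Chil3, 28.7 and 21.8 of Mrc1, 5.06 and 1.80 of Pparg and 4.74 and 0.149 of Krt79. On this scale 8 of 9 members were lower in BLM, with log2 ratios from -0.39 (-0.45 to -0.34) for Mrc1 to -5.23 (-6.11 to -4.45) for Fabp1. Marco was the exception, with 0.46 (0.03 to 0.92), and 0.15 (-0.28 to 0.61) once Lyz2 was left out of the list. In CPM 4.96% of 22772 genes were at least 4-fold higher in BLM, and Mrc1 fell below 0 here from a log2 ratio of 2.82. Genes with a smaller rise than Mrc1 in CPM, among them all under 4-fold, therefore also lie below 0 on this scale. The count of 8 thus does not set the members apart. The direction for Siglecf, Chil3, Ear2, Pparg and Mrc1 thus depends on whether all reads or reads of this list form the denominator. In sham Lamp1-depleted cells the sum of the list was 1905 CPM against 2565 CPM in unsorted cells, while Siglecf had 3.11 against 14.3 CPM. Whether the reads of the list came from macrophages alone was not tested. The part of macrophage number or type in these ratios was not tested.

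**Figure D4:**
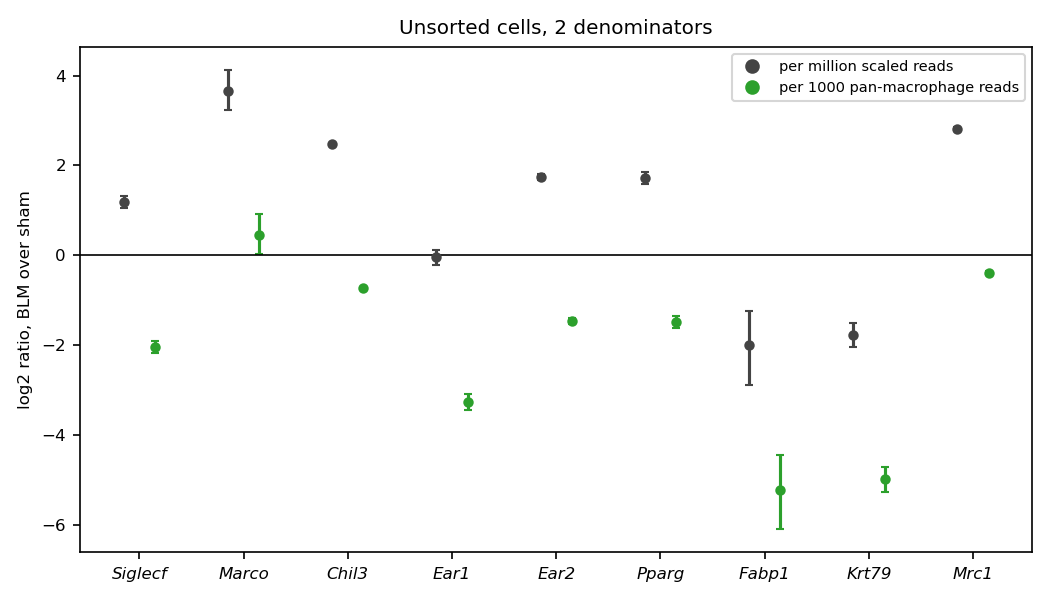
Log2 ratio of BLM over sham in unsorted cells for each member in CPM (grey) and per 1000 reads of the 10 pan-macrophage genes (green), with 95% counting intervals. Per read of that list all members but Marco lie below 0, from -0.39 for Mrc1 to -5.23 for Fabp1. Mrc1 was 7.04-fold higher in BLM in CPM, so any gene with a smaller rise, and thus any under 4-fold, also lies below 0 on this scale.

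In the plot of both denominators, Siglecf moves from 1.18 to -2.03 and Ear1 from -0.05 to -3.26. Krt79 and Fabp1 are below 0 on either scale. Within the sorted fractions the same denominator gave -3.24 (-4.74 to -2.05) for Krt79 in Lamp1-depleted and -3.39 (-4.04 to -2.78) in Lamp1-enriched cells. Without Lyz2 these ratios were -2.96 (-4.45 to -1.76) and -3.17 (-3.82 to -2.56). Chil3 had 0.09 (0.02 to 0.16) in Lamp1-depleted and -0.03 (-0.09 to 0.02) in Lamp1-enriched cells, and 0.37 (0.30 to 0.44) and 0.18 (0.13 to 0.24) without Lyz2, so its direction in Lamp1-enriched cells depends on that gene. Mrc1 was higher in BLM Lamp1-enriched cells on this scale, with 0.32 (0.21 to 0.43) and 0.54 (0.43 to 0.65) without Lyz2, opposite to unsorted cells. In the same fraction Marco had 0.82 (0.03 to 1.69) and Pparg 0.11 (-0.16 to 0.39). Without Lyz2 these were 1.04 (0.25 to 1.91) and 0.33 (0.06 to 0.61), so that the Pparg interval no longer included 0. Mrc1 in Lamp1-depleted cells went from -0.12 (-0.28 to 0.04) to 0.17 (0.01 to 0.32) without Lyz2.

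Other genes typical of alveolar macrophages were set beside the members. Of 15 such genes, 3 were at least 4-fold above both fractions in sham (Plet1, Olr1 and Cidec) and 12 in BLM, while 11 were at least 4-fold higher in BLM than in sham unsorted cells. Their median log2 ratio of BLM over sham was 3.09, above that of the members. The lectin-like receptor Olr1 had 59.2, 11.5 and 8.87 CPM in sham and 504, 39.1 and 49.4 CPM in BLM. Cidec, a lipid droplet protein, was 1 of 2 genes of this list lower in BLM unsorted cells, with a log2 ratio of -0.48 (-0.75 to -0.21). The other was Car4, with -0.55 (-0.61 to -0.50), which had 164, 28.6 and 169 CPM in sham, with like levels in unsorted and Lamp1-enriched cells. Car4 is also made by a class of lung capillary endothelial cells. The edgeR test called 12 of the 15 higher in unsorted than in Lamp1-depleted cells and 9 higher than in Lamp1-enriched cells.

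A list of genes related to the GM-CSF receptor and to Pparg-linked lipid handling was also compared. It includes Csf2rb2, a relative of the receptor chain Csf2rb. Of 15 genes, 0 met the 4-fold rule over both fractions in sham and 5 did in BLM (Csf2rb2, Fabp5, Plin2, Abcg1 and Lipa). In unsorted cells 10 of 15 were at least 4-fold higher in BLM. The receptor chain Csf2ra had 36.3, 36.5 and 10.4 CPM in sham, a pattern like that of Pparg, and 233, 132 and 32.6 CPM in BLM. Csf2rb had 44.2, 36.8 and 11.1 CPM in sham and 518, 141 and 70.7 CPM in BLM. Cd36, which endothelial cells also make, was the most abundant in sham and was highest in Lamp1-enriched cells, with 4130 CPM in sham and 3646 CPM in BLM.

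Close relatives of the members were compared by family. In the Ear ribonuclease family, which includes Ear1 and Ear2, Rnase2b was past 4-fold over both fractions in sham, and 4 of the 5 compared genes were in BLM at fitted values (Ear1, Ear2, Ear6 and Rnase2b). Rnase2b and Ear6 had 90 and 14 reads in BLM unsorted cells and 0 in BLM Lamp1-depleted cells. In the chitinase-like family Chil3 met the rule in BLM, the only such gene of the 5 compared. Its relative Chil1 had 42.6, 5.92 and 26.8 CPM in sham and 19.4, 9.33 and 12.8 CPM in BLM, and Chia1 was lower in BLM unsorted cells, with a log2 ratio of -3.12. In the Siglec family, Siglecf met the rule in sham, and Siglecf, Siglec1 and Cd33 did in BLM. The B cell genes Siglecg and Cd22 were highest in Lamp1-depleted cells, with 188 and 482 CPM in sham.

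Among fatty acid-binding proteins, Fabp1 met the rule in sham, and Fabp5 and, at its fitted value over 0 reads, Fabp1 did in BLM. In unsorted cells 3 of the 6 compared genes of this family were higher in BLM and 3 lower. Fabp4 and Fabp5 had 36.3 and 5.48 CPM in sham unsorted cells and 96.8 and 71.6 CPM in BLM unsorted cells, the direction opposite to that of Fabp1. Fabp3 and Fabp6 were lower in BLM like Fabp1, with 80 and 18 reads in sham and 40 and 0 reads in BLM unsorted cells. Of 9 scavenger and mannose receptors, 0 met the rule in sham and 3 in BLM, Marco, Mrc1 and Msr1. Msr1 had 3.96, 5.77 and 1.41 CPM in sham and 116, 12.9 and 16.3 CPM in BLM. Stab1, the most abundant of this list in sham, was highest in Lamp1-enriched cells, with 238 CPM in sham and 191 CPM in BLM.

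Markers of other macrophage states were compared in the same way. All 6 scar-associated macrophage markers were at least 4-fold above both fractions in BLM, against 0 in sham, and all 6 were at least 4-fold higher in BLM unsorted cells, with a median log2 ratio of 5.63. Their summed level was 111, 21.5 and 87.1 CPM in sham and 4780 (4779.6), 369 and 658 CPM in BLM, led by Spp1, with no gene at 0. Of 10 monocyte and interstitial macrophage markers, 3 met the rule in BLM (C1qa, C1qb and C1qc) and 6 were at least 4-fold higher in BLM unsorted cells. Their sum was 87.9, 268 and 60.2 CPM in sham, led by Ccr2, and 538, 192 and 120.4 CPM in BLM, led by C1qb in unsorted cells. The part of these macrophages in the members' levels was not tested.

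Cells that could share single members were checked by their markers. The eosinophil granule genes Prg2 and Epx had at most 9 and 4 reads in any library and Ccr3 6 to 13 reads, while Il5ra had 1788 reads (39.2 CPM) in sham Lamp1-depleted cells. The eosinophil list summed to 7.46, 39.8 and 2.65 CPM in sham and to 16.5, 11.7 and 2.97 CPM in BLM, led by Il5ra or Alox15, and 1 of the 3 compared genes, Alox15, met the rule in each treatment. The part of eosinophils in the levels of Siglecf, Ear1 and Ear2 was not tested. Neutrophil markers summed to 67.3, 47.9 and 27.5 CPM in sham and to 132, 327 and 59.0 CPM in BLM, led by Csf3r, and 0 of 6 met the rule. Their sum was highest in BLM Lamp1-depleted cells, where Chil3, also made by neutrophils, was at 141 CPM. Of 6 dendritic cell markers 0 met the rule in either treatment.

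Most markers of other lineages did not meet the 4-fold rule over both fractions. Endothelial markers summed to 4307, 1012 and 7954 CPM in sham and to 3140 (3139.5), 859 and 9251 CPM in BLM, highest in Lamp1-enriched cells, and 0 of 6 met the rule. T, B and NK cell markers had 0 genes past the rule, and 5 of 5 T, 4 of 4 B and 4 of 4 NK cell markers were called lower in unsorted than in Lamp1-depleted cells by the edgeR test. By the same test 6 of 6 endothelial, 5 of 5 lymphatic, 5 of 6 type 2 and 4 of 5 fibroblast markers were called higher in unsorted than in Lamp1-depleted cells, as 7 of 9 members were. Against Lamp1-enriched cells 0 of 6 endothelial, 2 of 5 lymphatic, 0 of 6 type 2 and 0 of 5 fibroblast markers were called higher. B cell markers alone summed to 2108 CPM in sham Lamp1-depleted cells against 146 CPM in unsorted cells. Alveolar type 2 and fibroblast markers also had 0 genes past the rule, and for type 2 markers the log2 ratio between BLM and sham unsorted cells had a median of -2.14, with 3 of 6 at least 4-fold lower and Abca3 not detectably different at -0.04 (-0.10 to 0.02). Of the lymphatic list Prox1 and Reln met the rule in BLM, of the adipocyte list Cfd, and of the liver and gut list none. Lamp1, Lamp2 and Ptprc did not meet it in either treatment.

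Genes with profiles most like the members were found by root mean square distance of centred log2 CPM over the 6 libraries, among genes with at least 50 reads in the highest library. Nearest to the mean of the members were Slc45a3 (0.30), Ptprz1 (0.34), Apoc1 (0.38), Cldn1 (0.39), Vit (0.39), Pcsk6 (0.40), Perp (0.43), Tnfaip8l3 (0.43), Vstm2a (0.43) and Cyp2a5 (0.44). Several members had closer neighbours of their own. Kcnn3 lay nearest to Mrc1 (0.17) and second to Chil3 (0.21), whose nearest gene was Galnt3 (0.18), and Tfec was the third for both (0.30 and 0.24). Gm15931 (0.21), Gsap (0.22) and Tnip3 (0.22) were near Pparg, Abcd2 (0.22) near Ear2, Slc7a2 (0.30) near Marco and Pcsk6 (0.21) near Siglecf. Fabp1 is left out here, since its 0 reads in both BLM fractions put its profile there at the prior of 0.5 reads, which also enters the mean of the members. Krt79 was nearest to Slc7a10 (0.57) and, among members, to Ear1 (0.60).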

How the data were processed

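RNA of 6 libraries of mouse lung cells was analysed, 1 for each condition named by the labels. The authors deposited raw read counts for each Ensembl gene, with no normalization. The submitters' processing notes name Trimmomatic 0.36, STAR 2.5.2b, featureCounts of Subread 1.5.2, DESeq2 and GRCm38. The annotation release and the strand setting were not given in the sources used here. Gene positions and exon lengths came from GENCODE on GRCm38, found for 48970 genes.

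TMM factors and the quasi-likelihood test were computed with edgeR 4.0.16 in R 4.3.3, and ratios with Python 3.11.15, numpy 2.4.6, scipy 1.17.1 and pandas 2.3.3. A gene was compared where the higher library had at least 10 reads and counted at a log2 ratio of 2 or more. The test used genes kept by filterByExpr and called those with an adjusted p (Benjamini-Hochberg, 21906 genes) under 0.05. SE was the log2 ratio divided by the square root of the F statistic. DESeq2 1.42.0 gave alternative size factors and a Wald test. The ratio and edgeR steps were tested on simulated data.

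Genes named are the 9 members, genes of the macrophage, family and cell type lists, the 10 genes nearest to the members' mean profile, the 3 nearest to each member, and Gm26917 and Gm42418. From these groups some genes are given as counts. Members and lists were chosen with earlier results of these data known. Alternatives were other scalings, prior counts, read minimums and fold rules, and leaving out each library.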

Additional observations from a re-analysis of the deposited data

Results flagged for a closer look

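Ear2 and Pparg stood out because, in CPM, BLM and sham differed in opposite directions between cell preparations, with counting intervals on either side of 0. For Ear2 the log2 ratio of BLM over sham was 1.74 in unsorted, -1.0 in Lamp1-depleted and 0.16 in Lamp1-enriched cells. For Pparg it was 1.72, -0.39 and 1.44 in the same order. The opposite directions of unsorted and Lamp1-depleted cells remained per Siglecf read. Ear2 had 0.56 (0.41 to 0.71) in unsorted and -1.17 (-1.61 to -0.74) in Lamp1-depleted cells. Pparg had 0.54 (0.36 to 0.73) and -0.56 (-1.02 to -0.10) in the same order. Opposite directions were not seen per read of the pan-macrophage genes. On that scale Ear2 had -1.47 in unsorted and -1.81 in Lamp1-depleted cells, and Pparg -1.49 and -1.20, all with intervals below 0. In Lamp1-enriched cells Ear2 had -1.17 and Pparg 0.11, the latter with an interval that includes 0. The difference between preparations was not tested, since a model with that term uses up all 6 libraries. Both genes also had sham Lamp1-depleted levels close to those of unsorted cells, and the BLM Lamp1-depleted library is the one with 38.4% of its reads on Gm26917. With totals outside Gm26917 and Gm42418, neither gene changed direction in BLM over sham Lamp1-depleted cells. The median of all genes there shifted by -0.05 with that scaling. The part of that library in the difference was otherwise not tested.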

How the results depend on the processing

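The sham count of members at least 4-fold above both fractions, 3, became 6 with total counts only and 6 with totals outside Gm26917 and Gm42418, when Chil3, Ear1 and Mrc1 joined. With the rule set at a log2 ratio of 1 it was 7, with 3 it was 0, and it ranged from 3 to 7 with each sham fraction left out. The BLM count, 8, was 5 with a rule of 3 (Marco, Chil3, Ear2 and Mrc1, with Fabp1 at its fitted value over 0 reads) and 8 to 9 with each BLM fraction left out. Members at least 4-fold lower in BLM, 0, became 2 with total counts only (Fabp1 and Krt79), 1 outside Gm26917 and Gm42418 (Fabp1) and 2 with a rule of 1. Members called by edgeR ranged from 5 to 8 over Lamp1-depleted and from 1 to 9 over Lamp1-enriched cells with each library left out, where 1 residual degree of freedom remained and the spread was pooled. Pooling was full in these fits except without the sham or the BLM Lamp1-depleted library, where it was partial. With total counts, DESeq2, all genes or the 4 libraries of the fractions compared, 8 and 9 were called. The cause of these differences was not tested. Of 316 single ratios 49 moved beyond their counting interval and 0 changed sign among called values, and of 36 medians 15 moved.

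Over all genes, edgeR called 451 higher and 21 lower in unsorted than in Lamp1-enriched cells. This became 865 and 12 with total counts only, 1435 and 237 with all genes, 1159 and 301 with DESeq2 and 772 and 129 with 4 libraries. Leaving out a library gave 48 to 1398 higher, the lowest without BLM Lamp1-enriched and 112 without BLM unsorted cells. Against Lamp1-depleted cells, 4110 higher and 1956 lower became 4433 and 1061 with total counts only.

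Other scalings shifted the median of all genes by up to 0.23 in sham unsorted over Lamp1-enriched cells, by 0.50, -0.15 and -0.11 in BLM unsorted over Lamp1-depleted cells, by -0.17 and -0.22 in sham Lamp1-enriched over Lamp1-depleted cells, by 0.55, -0.15 and -0.14 in BLM Lamp1-enriched over Lamp1-depleted cells, by -0.26 and -0.17 in BLM over sham unsorted cells, and by -0.72 and 0.15 in BLM over sham Lamp1-depleted cells. No member changed direction in unsorted over sorted ratios or in BLM over sham unsorted cells under these scalings. In BLM Lamp1-enriched over Lamp1-depleted cells, Pparg went from -0.29 to 0.27 with total counts only, and Ear2 from 0.02 to -0.13 with DESeq2 size factors and -0.12 outside Gm26917 and Gm42418. The edgeR test paired sorted and unsorted libraries by treatment, and pairing by mouse could not be done, since each condition has 1 pooled library. Leaving out sorted libraries for the 4-fold counts, placing genes at their bound, and both macrophage denominators were chosen after seeing the data.

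Limits. With 1 pooled library for each condition, differences between mice were not measured. The edgeR test rests on 2 residual degrees of freedom and on how far sham and BLM differ in the fraction effect. In sham, Fabp1 had at most 80 and Marco at most 48 reads. Ear1, Ear2 and Chil3 share sequence with near copies. Sorting, RNA amount and library preparation cannot be told apart from the fraction.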

Other observations

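Levels in each library are given for some of the genes nearest to a single member, which were chosen for their likeness to it. Slc7a2, an amino acid transporter and the gene nearest to Marco, had a log2 CPM of 5.04, 2.78 and 3.11 in the unsorted, Lamp1-depleted and Lamp1-enriched sham libraries and of 8.75, 4.64 and 5.66 in BLM. Kcnn3, a potassium channel near both Mrc1 and Chil3, had a log2 CPM of 4.41, 2.12 and 2.34 in sham and of 7.30, 3.29 and 3.93 in BLM. Slc7a10, nearest to Krt79, had 2.99, -0.07 and 1.29 in sham and 0.11, -2.01 and -1.40 in BLM.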
